A study of Homo sapiens with 15 samples.

Results

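The genes described here are 9 genes of the G1/S transition and of DNA synthesis on a panel of 758 genes: CCND1, CCNE1, CCNA2, CDC6, RRM2, TYMS, ORC6, NASP and MYBL2. They were taken by symbol, whatever their values. All 9 were found, and all 9 were tested, as were 622 panel genes in total, those with a linear value above 20 in 3 or more of the 15 libraries. RNA came from JIMT-1, an established human HER2-positive breast cancer cell line, grown in medium with 10% fetal bovine serum. The study set a compound and a pair of knockdown lines against control cells.

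There were 4 groups. HSL119 (n = 3) was JIMT-1 given HSL119, a compound known here by its code name, at 1 ug/ul as the labels write it. KD1 (n = 4) and KD2 (n = 4) were HUNK knockdown cells, HUNK being a serine/threonine kinase, kept in medium with 1 ug/ul puromycin as the labels write it. CTL (n = 4) was the control. The labels give no treatment time, and they do not say how the knockdowns were made, whether each line is a clone, or what CTL cells were given (vehicle, puromycin, a control construct). The effects of knockdown and of puromycin cannot be told apart here. HUNK is not on the panel, so the knockdown itself was not checked here. The same 4 CTL libraries serve all 3 comparisons with CTL, which are thus not independent of each other.

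In a dividing cell, cyclin D1 with CDK4 or CDK6 and cyclin E1 with CDK2 phosphorylate the retinoblastoma protein, which frees E2F transcription factors to switch on genes for DNA replication. The products of those genes load the replicative helicase at origins, make deoxynucleotides and package new DNA with histones. In HER2-positive breast cancer, signalling from HER2 through the RAS and PI3K pathways is known to raise cyclin D1, and cyclin E1 is known to be amplified in part of these tumours.

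Recovered total counts per library were 1361855 to 1466439 (HSL119), 1456002 to 1543047 (KD1), 1442964 to 1561639 (KD2) and 1241234 to 1457370 (CTL). HSL119 replicate 2 stood apart near background, with 619 genes above the linear value of 20, against 531 and 546 in the other HSL119 libraries and 523 to 567 elsewhere. In KD1 and CTL, library 1 nearly repeated library 2, and library 3 nearly repeated library 4. The chi-square of such pairs per degree of freedom was 1.15 and 1.32 in KD1 and 1.54 and 1.15 in CTL, where counting error alone gives about 1. In KD2 it was 1.37 for libraries 1 and 2 and 23.8 for libraries 3 and 4. The labels do not say that any libraries came from separate cultures, so p-values measure only the spread between libraries, which may be technical. The HER2-positive epithelial markers ERBB2, GRB7, CDH1 and KRT7 were above the floor in every library, with a summed linear value of 41196 to 44515 in HSL119, 42912 to 48308 in KD1, 36021 to 44741 in KD2 and 48585 to 51214 in CTL. The 4 leukocyte markers summed to 206 to 222 in HSL119, 317 to 467 in KD1, 372 to 546 in KD2 and 453 to 477 in CTL. Summed endothelial (4) and fibroblast (3) markers lay between 40.2 and 403 in every group.

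Levels are given as scaled counts, which are the deposited values with each library shifted by its median deviation over the 622 tested genes. They compare libraries for a gene, not genes with each other. Differences are on the log2 scale and were tested with limma over all 622 genes. The words rose and fell are kept for genes with a limma adjusted p under 0.05 in that direction in all 10 fits. These were 5 scalings, each fitted to every library and again after averaging the library pairs 1 with 2 and 3 with 4 in KD1, KD2 and CTL. The median gene moved against CTL by 0.05 in HSL119, 0.01 in KD1 and -0.01 in KD2 on the scale used, against 0.41, 0.43 and 0.41 on the deposited log2 scale.

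The 250 bases upstream of the start are shown for CCNE1, CCNA2, ORC6 and RRM2, which fell together in HSL119, and for CDC6, which lay on the other side of CTL from CCNE1 in the knockdowns. They are from RefSeq on GRCh38.p14, 5′ to 3′ on the gene's strand. Capitals mark GGCGGGA, the core of an E2F site, and CCAAT, the box bound by NF-Y, each on either strand. CCNE1 lies at chr19:29811741-29811990 on the plus strand, CCNA2 at chr4:121823884-121824133 on the minus strand and ORC6 at chr16:46689409-46689658 on the plus strand. RRM2 lies at chr2:10122489-10122738 and CDC6 at chr17:40287629-40287878, both on the plus strand.
CCNE1: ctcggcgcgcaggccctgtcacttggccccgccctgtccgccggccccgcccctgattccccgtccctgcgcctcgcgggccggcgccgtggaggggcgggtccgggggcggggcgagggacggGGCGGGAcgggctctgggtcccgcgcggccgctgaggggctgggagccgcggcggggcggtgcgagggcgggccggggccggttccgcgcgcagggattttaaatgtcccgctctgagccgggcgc
CCNA2: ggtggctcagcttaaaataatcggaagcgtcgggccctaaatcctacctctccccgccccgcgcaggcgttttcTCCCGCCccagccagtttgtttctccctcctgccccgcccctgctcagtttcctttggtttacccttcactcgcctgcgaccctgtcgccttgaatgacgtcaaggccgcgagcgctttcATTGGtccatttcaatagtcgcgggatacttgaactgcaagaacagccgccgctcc
ORC6: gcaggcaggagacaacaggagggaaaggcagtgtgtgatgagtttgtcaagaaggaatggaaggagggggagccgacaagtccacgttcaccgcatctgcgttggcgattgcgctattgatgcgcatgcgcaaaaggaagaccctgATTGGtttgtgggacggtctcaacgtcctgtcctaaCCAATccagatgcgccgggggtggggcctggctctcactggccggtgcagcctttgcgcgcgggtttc
RRM2: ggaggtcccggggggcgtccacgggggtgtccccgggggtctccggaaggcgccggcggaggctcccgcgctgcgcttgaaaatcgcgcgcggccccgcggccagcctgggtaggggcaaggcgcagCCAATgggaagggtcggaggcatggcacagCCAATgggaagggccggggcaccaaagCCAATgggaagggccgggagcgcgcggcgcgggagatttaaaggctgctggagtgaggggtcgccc
CDC6: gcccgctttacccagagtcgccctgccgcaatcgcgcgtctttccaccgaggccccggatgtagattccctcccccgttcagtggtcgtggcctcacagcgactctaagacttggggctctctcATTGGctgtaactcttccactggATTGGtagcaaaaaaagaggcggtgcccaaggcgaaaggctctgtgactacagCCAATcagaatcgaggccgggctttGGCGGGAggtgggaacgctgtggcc
GGCGGGA was found for 4 of the 8 genes with a listed promoter (CCNE1, CCNA2, CDC6 and MYBL2), against 13.53% of 35116 promoters of the same length. Its match began 126 bases before the start in CCNE1, 176 in CCNA2, 25 in CDC6 and 39 in MYBL2. CCAAT was found for 5 of the 8 (CCNA2, CDC6, RRM2, ORC6 and NASP), against 32.01% of all promoters. The longer E2F site, searched as TTTCCCGC, TTTCGCGC, TTTGCCGC and TTTGGCGC, was found in TYMS, at 39 bases before the start, and in no other of the 8, against 2.788% of all. These motifs can overlap and were counted apart, and GGCGGGA was chosen after the letters had been read. RRM2 has a pair of listed starts, and the one shown holds 3 CCAAT boxes.

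HSL119 was compared with CTL to ask how the 9 genes differ in cells given the compound. CCNE1, CCND1, CCNA2, ORC6 and RRM2 fell, and none rose. Over all 622 genes 18.2% fell and 20.3% rose. On the scale used here alone, 7 of the 9 were lower and 0 higher at an adjusted p under 0.05, where 34.6% of all tested genes were lower and 33.1% higher. The median of the 9 differences was -1.15, against 0.05 over all tested genes, and the largest was that of RRM2, at 5.16-fold lower. In 8 of the 9 genes the HSL119 libraries did not overlap the CTL libraries, as in 74.9% of all tested genes. Of these, NASP lay above CTL and the other 7 below, and MYBL2 overlapped.

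**Figure D1:**
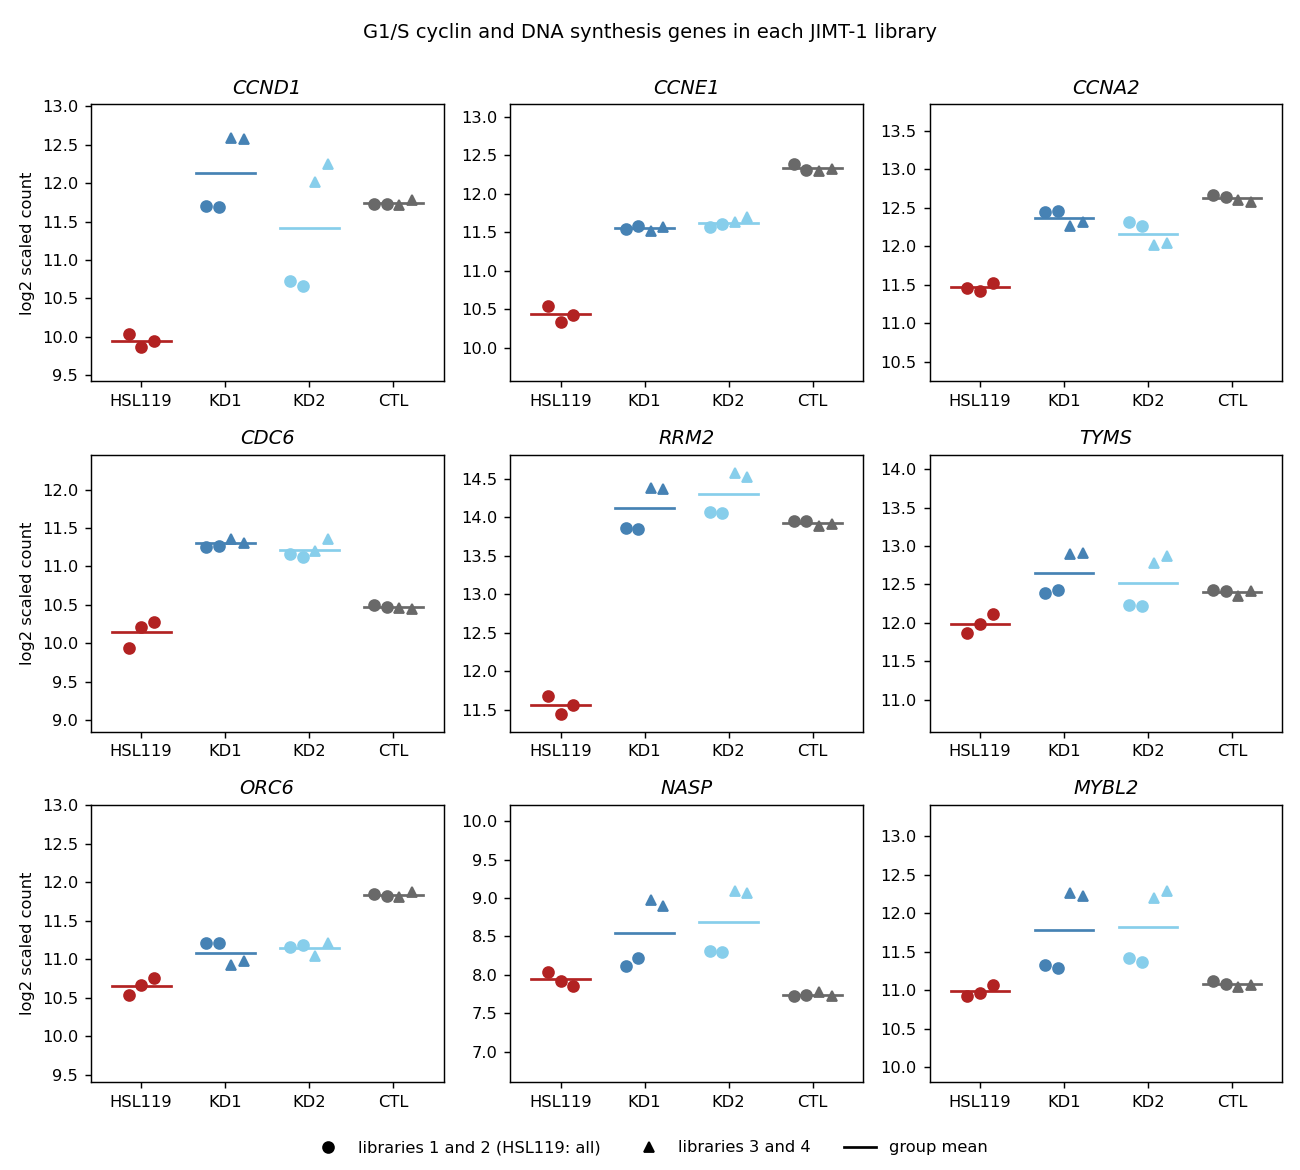
Log2 scaled count (vertical axis, the same span of log2 units in each panel) of the 9 genes in each library of HSL119, KD1, KD2 and CTL. Circles are libraries 1 and 2 and all of HSL119, triangles are libraries 3 and 4, and lines are group means. RRM2, CCNE1 and CCND1 are lowest in all 3 HSL119 libraries, and CCND1, MYBL2 and NASP lie higher in triangles than in circles in KD1 and KD2, by 0.76 or more on average, against at most 0.02 in CTL.

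Cyclin D1 starts the sequence by activating CDK4 and CDK6. CCND1 had 1050, 931 and 984 scaled counts in the HSL119 libraries, against 3396, 3385, 3356 and 3501 in the CTL libraries. The groups were far apart, and each was tight within itself. CCND1 fell by 1.79 (SE 0.355, limma adjusted p = 0.000480), 3.45-fold lower than CTL. That SE is pooled over all groups, and the SD of log2 CCND1 was 0.09 in HSL119, 0.51 in KD1, 0.84 in KD2 and 0.03 in CTL. Fitted on HSL119 and CTL alone, its SE was 0.0555 and limma's adjusted p 1.57e-13. The demand that all 10 fits pass was no longer met by CCND1 when any 1 HSL119 library was left out, with differences of -1.83, -1.75 and -1.79 without replicates 1, 2 and 3 for CCND1, HSL119 vs CTL. The other 4 genes that fell still met it then.

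Cyclin E1 drives entry into S phase with CDK2. CCNE1 had 1488, 1295 and 1369 scaled counts in HSL119, against 5359, 5079, 5051 and 5143 in CTL. It fell by 1.90 (SE 0.0585, limma adjusted p = 7.70e-12), 3.73-fold lower. Cyclin A2 binds CDK2 in S phase and CDK1 before mitosis. CCNA2 had 2821, 2740 and 2948 scaled counts in HSL119, against 6524, 6395, 6223 and 6110 in CTL. It fell by 1.15 (SE 0.0813, limma adjusted p = 1.59e-08), 2.23-fold lower. All 3 cyclins thus had HSL119 libraries well below CTL, with the smallest difference in CCNA2.

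ORC6, a subunit of the origin recognition complex, and CDC6, which joins that complex to load the MCM helicase, are origin licensing genes. ORC6 had 1488, 1630 and 1725 scaled counts in HSL119, against 3691, 3610, 3590 and 3740 in CTL, and fell by 1.18 (SE 0.0822, limma adjusted p = 1.38e-08). CDC6 had 985, 1192 and 1239 in HSL119, against 1452, 1421, 1412 and 1391 in CTL. Each HSL119 library was below each CTL library, with replicate 1 the lowest. The CDC6 difference was -0.32 (SE 0.0809, limma adjusted p = 0.00286), but it passed in only 6 of the 10 fits and turned to 0.03 on the deposited log2 scale.

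RRM2 and TYMS serve deoxynucleotide synthesis. RRM2, the radical-bearing subunit of ribonucleotide reductase, makes deoxynucleotides in S phase. It had 3275, 2792 and 3014 scaled counts in HSL119, against 15838, 15820, 15203 and 15431 in CTL. RRM2 fell by 2.37 (SE 0.158, limma adjusted p = 9.26e-09), the largest change of the 9. Thymidylate synthase, encoded by TYMS, makes thymidine monophosphate. TYMS had 3735, 4037 and 4431 scaled counts in HSL119, against 5510, 5454, 5219 and 5434 in CTL. The groups did not overlap, and the difference of -0.41 (SE 0.169, limma adjusted p = 0.0436) passed in 3 of the 10 fits. On HSL119 and CTL alone limma's adjusted p for TYMS was 1.01e-05.

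NASP, a histone chaperone, had 264, 243 and 233 scaled counts in HSL119, against 213, 213, 220 and 211 in CTL. Every HSL119 library was the higher, but the difference of 0.20 (SE 0.236, limma adjusted p = 0.473, 95% interval -0.31 to 0.71) did not pass, and it was -0.06 with library medians. MYBL2, a transcription factor of the MYB family that is itself switched on at G1/S, had 1940, 1993 and 2144 in HSL119, against 2231, 2166, 2098 and 2150 in CTL. The MYBL2 difference was -0.09 (SE 0.269, limma adjusted p = 0.779, 95% interval -0.67 to 0.48), and it was 0.26 on the deposited log2 scale and 0.04 after quantile normalization. These RNA levels come from bulk cells, so fewer cells in S phase and less RNA per cell cannot be told apart.

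KD1 and KD2 were each compared with CTL to ask how the 9 genes differ in the HUNK knockdown lines. CDC6 rose in both lines, where 6.91% of all tested genes rose in KD1 and 8.68% in KD2. CCNE1 fell in KD1, where 1.13% of all tested genes fell. No member fell in KD2, where 2.41% of all tested genes fell. The median of the 9 differences was 0.25 in KD1 and 0.12 in KD2, against 0.01 and -0.01 over all tested genes. On the scale used here alone, KD1 had 3 members higher and 3 lower at an adjusted p under 0.05, where 24.3% of all tested genes were higher and 21.9% lower. KD2 had 4 higher and 3 lower, where 28.9% of all tested genes were higher and 24.4% lower. CCNE1, CCNA2 and ORC6 lay below CTL in every library of both lines. CDC6, NASP and MYBL2 lay above CTL in every library of both lines, and RRM2 did in KD2. These make 6 of 9 genes without overlap in KD1, as in 51.1% of all tested genes, and 7 of 9 in KD2, as in 53.4%.

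**Figure D2:**
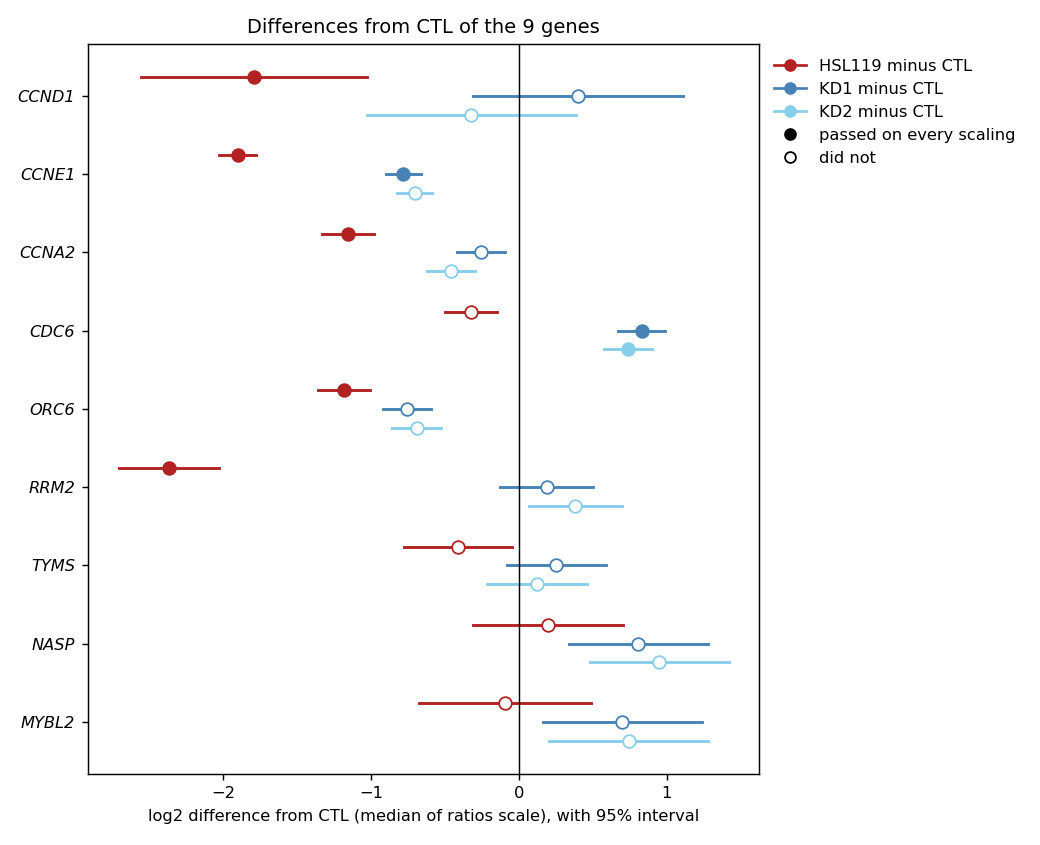
Log2 difference from CTL on the median of ratios scale (horizontal axis) for each of the 9 genes, with 95% intervals, for HSL119, KD1 and KD2. Filled points rose or fell in all 10 fits. CDC6 is to the right of 0 in both knockdown lines and to the left in HSL119, where it was at 0.03 on the deposited log2 scale, and CCNE1 is to the left of 0 in all 3.

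CDC6 had 2451, 2468, 2632 and 2541 scaled counts in KD1 and 2288, 2224, 2358 and 2629 in KD2, against 1452, 1421, 1412 and 1391 in CTL. All 8 knockdown libraries lay well above the CTL libraries. CDC6 rose by 0.83 in KD1 (SE 0.0749, limma adjusted p = 1.67e-06) and by 0.74 in KD2 (SE 0.0749, limma adjusted p = 3.65e-06), 1.78-fold and 1.67-fold. CCNE1 had 2974, 3080, 2919 and 3037 scaled counts in KD1 and 3044, 3128, 3180 and 3313 in KD2, against 5359, 5079, 5051 and 5143 in CTL. Here all 8 knockdown libraries lay well below CTL. CCNE1 fell by 0.78 in KD1 (SE 0.0541, limma adjusted p = 1.96e-07). In KD2 its difference was -0.70 (SE 0.0541, limma adjusted p = 4.83e-07), and it passed in 9 of 10 fits, with a highest adjusted p of 0.0532. Without HSL119 replicate 2, or without replicate 3, 0 members rose or fell in either line by these limma calls. Only 12 or 14 of all tested genes then rose in KD1 and 3 fell, against 43 and 7 with every library. In KD2, 37 or 34 of all tested genes rose and 10 or 11 fell, against 54 and 15 with every library. These HSL119 libraries enter the knockdown comparisons only through the pooled spread, its degrees of freedom and the scalings, which were recomputed. Without KD2 replicate 4, CCNE1 also fell in KD2.

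ORC6 had 2367, 2374, 1939 and 2019 scaled counts in KD1 and 2282, 2327, 2102 and 2364 in KD2, against 3691, 3610, 3590 and 3740 in CTL. The lines did not overlap CTL. The ORC6 differences were -0.76 (SE 0.0761, limma adjusted p = 4.81e-06) in KD1 and -0.69 (SE 0.0761, limma adjusted p = 8.03e-06) in KD2. Each passed in 9 of 10 fits, with highest adjusted p of 0.0644 and 0.106, and ORC6 also fell in KD1 when HSL119 replicate 1 was left out. CCNA2 had 5597, 5627, 4910 and 5093 in KD1 and 5121, 4932, 4128 and 4236 in KD2, against 6524, 6395, 6223 and 6110 in CTL. The CCNA2 differences of -0.25 in KD1 (SE 0.0753, limma adjusted p = 0.0145) and -0.46 in KD2 (SE 0.0753, limma adjusted p = 0.000224) passed in 4 and 6 of the 10 fits. That of KD1 was 0.17 on the deposited log2 scale and 0.01 on log2 of linear plus 1.

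The remaining 5 genes split each knockdown line into libraries 1 and 2 on the one side and libraries 3 and 4 on the other. MYBL2 had 2559, 2498, 4925 and 4805 scaled counts in KD1 and 2741, 2630, 4719 and 5008 in KD2, against 2231, 2166, 2098 and 2150 in CTL. NASP had 278, 299, 501 and 477 in KD1 and 317, 315, 546 and 536 in KD2, against 213, 213, 220 and 211 in CTL. Libraries 3 and 4 of both lines were the high ones, and all 8 lay above CTL. Over all libraries the MYBL2 differences were 0.70 (SE 0.249, limma adjusted p = 0.0345) in KD1 and 0.74 (SE 0.249, limma adjusted p = 0.0228) in KD2, passing in 4 and 5 of the 10 fits. Those of NASP were 0.81 in KD1 (SE 0.218, limma adjusted p = 0.00862) and 0.95 in KD2 (SE 0.218, limma adjusted p = 0.00262), passing in 6 and 7.

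CCND1 had 3329, 3306, 6132 and 6076 scaled counts in KD1 and 1698, 1616, 4151 and 4865 in KD2, against 3396, 3385, 3356 and 3501 in CTL. In KD1, libraries 1 and 2 were just below the CTL libraries and libraries 3 and 4 above it, while in KD2, libraries 1 and 2 were below CTL and libraries 3 and 4 above it. The CCND1 differences over all libraries were 0.40 (SE 0.329, limma adjusted p = 0.339, 95% interval -0.31 to 1.11) in KD1 and -0.32 (SE 0.329, limma adjusted p = 0.429, 95% interval -1.03 to 0.39) in KD2, where the deposited log2 scale gave 0.10. RRM2 had 14873, 14812, 21288 and 21200 in KD1 and 17193, 17023, 24506 and 23670 in KD2, against 15838, 15820, 15203 and 15431 in CTL. Its differences were 0.19 in KD1 (SE 0.146, limma adjusted p = 0.308) and 0.38 in KD2 (SE 0.146, limma adjusted p = 0.0407), which passed in 2 and 5 of 10 fits. TYMS had 5373, 5517, 7588 and 7667 in KD1 and 4810, 4770, 6998 and 7458 in KD2, against 5510, 5454, 5219 and 5434 in CTL. In RRM2 and TYMS too, libraries 3 and 4 of each line were the high ones and lay above every CTL library. Libraries 1 and 2 lay below CTL for RRM2 in KD1 and TYMS in KD2, above CTL for RRM2 in KD2 and close to CTL for TYMS in KD1. The TYMS differences were 0.25 (SE 0.157, limma adjusted p = 0.203) in KD1 and 0.12 (SE 0.157, limma adjusted p = 0.536) in KD2, where library medians gave -0.02.

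**Figure D3:**
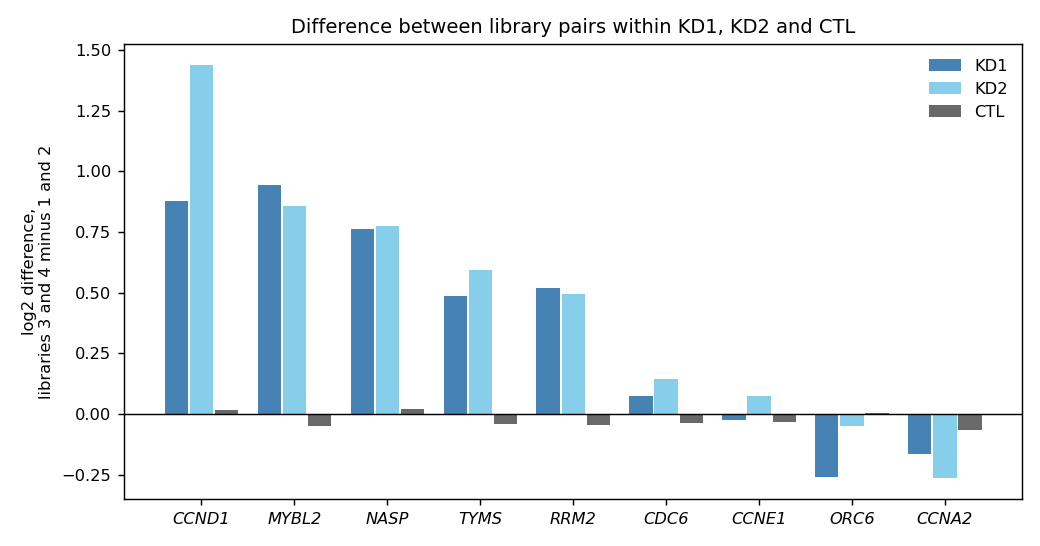
Log2 difference of libraries 3 and 4 from libraries 1 and 2 (vertical axis) within KD1, KD2 and CTL for the 9 genes. CCND1, MYBL2, NASP, TYMS and RRM2 stand 0.49 or more above 0 in both knockdown lines, and no CTL bar exceeds 0.07 in size.

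The size of that split differed between the genes. For CCND1, libraries 3 and 4 exceeded libraries 1 and 2 by 0.88 (KD1) and 1.44 (KD2), against 0.02 in CTL. In MYBL2 the difference was 0.94 (KD1) and 0.86 (KD2), against -0.05 in CTL. In NASP it was 0.76 (KD1) and 0.78 (KD2), against 0.02 in CTL. Counting the gene itself, 27 of the 622 tested genes in KD1 and 8 in KD2 had a split as high as CCND1. For MYBL2 it was 19 in KD1 and 45 in KD2, and for NASP 43 and 57. For TYMS it was 94 and 82, and for RRM2 86 and 105. CCNE1 (-0.02 in KD1, 0.07 in KD2) and CDC6 (0.07 in KD1, 0.14 in KD2) split little. ORC6 (-0.26 in KD1, -0.05 in KD2) and CCNA2 (-0.17 in KD1, -0.27 in KD2) were lower in libraries 3 and 4. The median of all tested genes was -0.0007 in KD1 and -0.048 in KD2. What the numbering of the libraries stands for is not given by the labels, and its part in these differences was not tested.

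Set against the CTL libraries of the same numbers, the genes therefore gave different values in each pair of libraries. CDC6 in KD1 was at 0.78 in libraries 1 and 2 and at 0.88 in libraries 3 and 4, and CDC6 in KD2 at 0.65 and 0.83. CCNE1 in KD1 was at -0.79 in libraries 1 and 2 and at -0.78 in libraries 3 and 4, and CCNE1 in KD2 at -0.76 and -0.65. These 2 genes thus gave close values in both pairs. CCND1 in KD1 was at -0.03 in libraries 1 and 2 (limma adjusted p = 0.744) and at 0.83 in libraries 3 and 4 (limma adjusted p = 6.85e-06). CCND1 in KD2 was at -1.03 in libraries 1 and 2 (limma adjusted p = 2.96e-09) and at 0.39 in libraries 3 and 4 (limma adjusted p = 0.00186), opposite in sign. MYBL2 in KD1 was at 0.20 in libraries 1 and 2 and at 1.20 in libraries 3 and 4, and MYBL2 in KD2 at 0.29 and 1.19. RRM2 in KD1 was at -0.09 in libraries 1 and 2 and at 0.47 in libraries 3 and 4, and RRM2 in KD2 at 0.11 and 0.65. TYMS in KD1 was at -0.01 in libraries 1 and 2 and at 0.52 in libraries 3 and 4, and TYMS in KD2 at -0.19 and 0.44. The sign of CCND1 and TYMS in both lines and of RRM2 in KD1 thus depended on which pair was read. The p-values within a pair rest on near-duplicate libraries, apart from libraries 3 and 4 of KD2.

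KD1 and KD2 were compared with each other to ask whether the knockdown lines differ in these genes. In the fit of all libraries 0 of the 9 genes differed in all 10 fits, where 0% of all tested genes rose and 0.161% fell. On the scale used here alone, 0 members passed an adjusted p of 0.05, where 3.38% of all tested genes were higher and 4.50% lower. Limma's unadjusted p was 0.0460 for CCND1 and 0.0154 for CCNA2, and above 0.05 for the other members. The share of all tested genes at that unadjusted level is not given here. At an adjusted p under 0.05, edgeR's quasi-likelihood test on whole counts gave 0 members, where 57 of all tested genes passed. CCNA2 passed in 3 of the 10 limma fits. For 8 of the 9 genes the 90% interval lay within 1.5-fold, and for 6 of 9 with pairs averaged, while that of CCND1 did not. These intervals were read for the members only, not over all tested genes. CCND1 was 0.72 higher in KD1 (SE 0.329, limma adjusted p = 0.236, 95% interval 0.01 to 1.43).

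Libraries of the same number in KD1 and KD2 deviated together, so the replicate number was also fitted as a block. Whether they did so beyond the split of libraries 1 and 2 from 3 and 4 was not tested. In the fit of all groups with the block, 0 of the 9 genes passed, with limma adjusted p of 0.0736 for CCNA2, 0.0943 for CCND1 and 0.403 to 0.946 for the others. In a fit of KD1 and KD2 alone with the block, added after seeing the data, 3 members were higher in KD1 and 1 lower, where 13.2% of all tested genes were higher and 10.8% lower. In that fit CCND1 was 0.72 higher in KD1 (SE 0.117, limma adjusted p = 0.00670), CCNA2 was 0.21 higher (SE 0.0377, limma adjusted p = 0.00971) and TYMS was 0.13 higher (SE 0.0386, limma adjusted p = 0.0489). RRM2 was at -0.19 (SE 0.0272, limma adjusted p = 0.00404), lower in KD1. By number 1 to 4, KD1 exceeded KD2 in CCND1 by 0.97, 1.03, 0.56 and 0.32, and in CCNA2 by 0.13, 0.19, 0.25 and 0.27. RRM2 differed by -0.21, -0.20, -0.20 and -0.16. Of the members, the only genes counted, CCND1, CCNA2, RRM2 and TYMS had 1 sign in all 4 numbered pairs, as did CCNE1 and NASP. These pairs are not 4 separate ones, as libraries 1 and 2 of both lines and 3 and 4 of KD1 are near-duplicates. The other 5 genes had limma adjusted p of 0.148 to 0.516 in the fit of KD1 and KD2 alone.

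HSL119 was then compared with the mean of KD1 and KD2, to ask where the compound and the knockdowns differ. All members except NASP fell, 8 of 9, where 24.6% of all tested genes fell and 22.2% rose. On the scale used here alone all 9 were lower at an adjusted p under 0.05, where 33.4% of all tested genes were lower and 33.6% higher. The median difference was -0.81, against -0.02 over all tested genes. RRM2 differed by -2.65 (SE 0.140, limma adjusted p = 6.14e-10), CCND1 by -1.83 (SE 0.315, limma adjusted p = 0.000136), CCNE1 by -1.16 (SE 0.0518, limma adjusted p = 1.07e-10) and CDC6 by -1.11 (SE 0.0717, limma adjusted p = 5.14e-09). CCNE1, below CTL in all 3 groups, was thus lower still in HSL119 than in the knockdown lines. MYBL2 (-0.81), CCNA2 (-0.80), TYMS (-0.60) and ORC6 (-0.46) followed, and NASP was at -0.68 (SE 0.209, limma adjusted p = 0.0107), passing in 8 of 10 fits. Several values depended on the knockdown libraries read. With libraries 1 and 2 or with 3 and 4 alone, MYBL2 was at -0.36 or -1.26, NASP at -0.29 or -1.06, TYMS at -0.33 or -0.87 and CCND1 at -1.25 or -2.41. RRM2 was at -2.40 or -2.90. CCNA2, ORC6, CDC6 and CCNE1 kept closer values, from CCNA2 at -0.91 or -0.69 to CCNE1 at -1.15 or -1.17. The 90% intervals of CCNE1, CCND1, RRM2, CCNA2 and CDC6 lay wholly beyond 1.5-fold, again read for the members only. Without any 1 HSL119 library, 6 of the 9 met the demand, TYMS and MYBL2 no longer meeting it, and without KD1 replicate 2 it was 7, TYMS no longer meeting it.

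Ratios of a pair of genes within a library are not changed by shifting a whole library, though quantile normalization can change them. CDC6 over CCNE1 averaged 0.83 in HSL119 (0.662 to 0.920), 0.841 in KD1 (0.801 to 0.902) and 0.750 in KD2 (0.711 to 0.794), against 0.275 in CTL (0.270 to 0.280). CDC6 was therefore high relative to CCNE1 in every library of all 3 groups, with CCNE1 below CTL in all 3 groups and CDC6 above CTL in the knockdown lines. RRM2 over TYMS averaged 0.750 in HSL119, while KD1 had 2.76, KD2 had 3.45 and CTL had 2.88. The HSL119 libraries, at 0.680 to 0.877, lay apart from all others, whose lowest was 2.68. RRM2 over CCNE1 averaged 2.19 in HSL119, while KD1 had 6.02, KD2 had 6.49 and CTL had 3.02. This ratio was thus below CTL in HSL119 and above CTL in both knockdown lines. As each ratio joins separate probes, its level has no meaning apart from the comparison between groups.

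**Figure D4:**
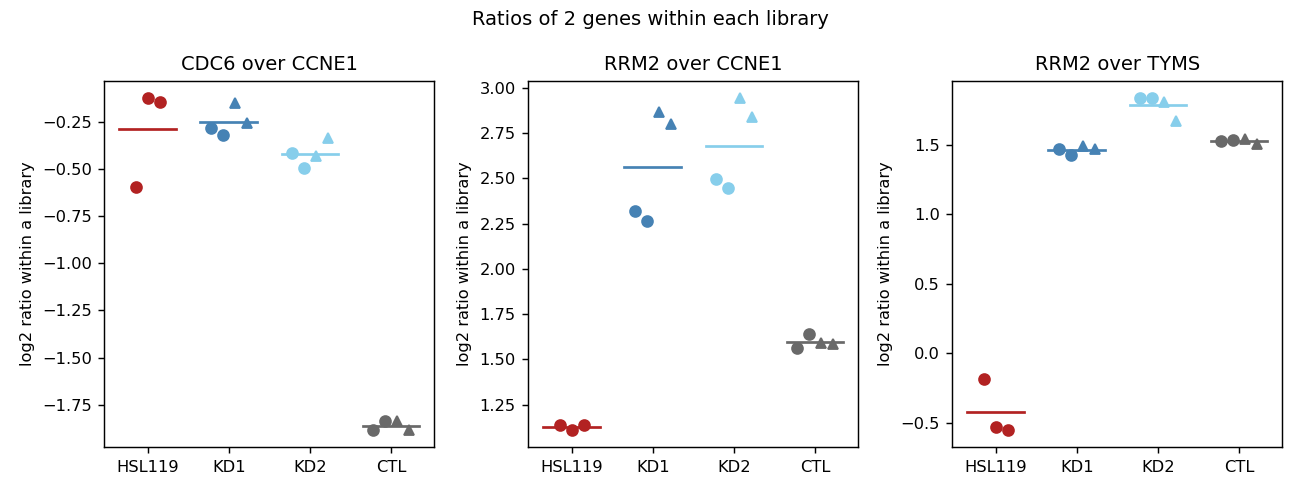
Log2 ratio of 2 genes within a library (vertical axes) in HSL119, KD1, KD2 and CTL, for CDC6 over CCNE1, RRM2 over CCNE1 and RRM2 over TYMS. Points are libraries, with triangles for libraries 3 and 4, and lines are group means. RRM2 over CCNE1 lies below CTL in HSL119 and above it in both knockdown lines.

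Other G1/S and replication genes on the panel numbered 18, of which 17 were tested. In HSL119, where 18.2% of all tested genes fell and 20.3% rose, 2 of the 17 fell and 0 rose, with a median of -0.25. They were CCNE2, the second cyclin E, which fell by 1.75 (SE 0.340, limma adjusted p = 0.000392), and EXO1, an exonuclease of mismatch repair, which fell by 1.07 (SE 0.0900, limma adjusted p = 1.08e-07). At an adjusted p under 0.05 on the scale used here alone, 8 were lower and 3 higher. Of all tested genes, 34.6% were lower and 33.1% higher. In KD1 none of the 17 passed all 10 fits, at a median of 0.20, with 6 higher and 1 lower on the scale used here. In KD2 the median was 0.25, with 9 higher and 1 lower on that scale. Of all tested genes, 24.3% were higher and 21.9% lower in KD1 on that scale, and 28.9% and 24.4% in KD2. Against the mean of KD1 and KD2, 8 of the 17 fell in HSL119, where 24.6% of all tested genes fell. The 8 were led by CCNE2 (-1.75), EXO1 (-1.30), CDC25A (-1.05), the phosphatase that activates CDK2, and CDK6 (-1.02), the partner of cyclin D1.

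The 28 G2/M and mitotic genes gave no single direction in HSL119. There 6 rose, among them ASPM (2.70) and CENPF (1.61), and 7 fell, among them CDK1 (-1.95) and UBE2C (-1.41), at a median of -0.22. Of all tested genes, 20.3% rose and 18.2% fell in HSL119. In KD1 4 rose and 0 fell, with 11 higher and 7 lower on the scale used here alone. In KD2 3 rose and 2 fell, with 9 higher and 15 lower on that scale. Of all tested genes, 6.91% rose and 1.13% fell in KD1, and 8.68% and 2.41% in KD2. On the scale used here alone, 24.3% were higher and 21.9% lower in KD1, and 28.9% and 24.4% in KD2. The same shares stand beside the counts of the lists that follow. Of the CDK inhibitors and RB1 (9 tested), the p21 gene CDKN1A rose by 1.63 in HSL119 (SE 0.115, limma adjusted p = 1.64e-08), CDKN2C by 1.22 and RB1 by 0.78, while CDKN1C and CDKN2D fell by 2.65 and 1.69. None of the 9 passed all 10 limma fits in KD1 or KD2. On the scale used here alone, 3 were higher and 4 lower in KD1, and 1 was higher and 5 lower in KD2, with differences down to -2.17 in KD1 and -2.36 in KD2. Of the 10 ERK output genes, known targets of ERK signalling, 8 fell in HSL119, among them FOSL1 (-4.69) and DUSP6 (-4.12), and 2 rose, DUSP4 and SPRY2, at a median of -2.84. In the knockdowns they lay on both sides of CTL, from -1.78 to 1.40 in KD1 (median 0.09) and from -0.86 to 1.13 in KD2 (median 0.02). None passed all 10 limma fits in KD1, where 2 were higher and 1 lower on the scale used here, and SPRY2 rose in KD2. These lists were chosen with earlier results of these data known.

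Over the 15 libraries, likeness of pattern was measured as the root mean square difference of gene-centred log2 values, as a description. Among the 9 genes the closest pair was NASP and MYBL2 (0.139), followed by CCNA2 and ORC6 (0.218). Outside the 9, the nearest gene was CCNE2 for CCND1 (0.272), RAC3 for CCNE1 (0.145), NUF2 for CCNA2 (0.0917) and CDC25A for CDC6 (0.143). For RRM2 it was CLDN1 (0.146), for TYMS SERBP1 (0.0927), for ORC6 HLA-C (0.147), and LAD1 for both NASP (0.0896) and MYBL2 (0.112). The second nearest were TUBA4A for CCND1, HMGA1 for CCNE1, MAD2L1 for CCNA2, POLQ for CDC6, INHBB for RRM2, TAP2 for TYMS, CDCA5 for ORC6, MCM3 for NASP and HELLS for MYBL2, at 0.102 to 0.339. The genes' own standard deviations over the libraries ran from 0.311 in TYMS to 1.05 in RRM2.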

How the data were processed

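RNA of 15 JIMT-1 libraries was measured on a panel of 758 genes. Per the file headers, the authors deposited normalized log2 counts and, beside them, normalized linear counts, used here as a signal. The authors' normalization, platform software and genome build are not given in the sources used here. The series' value table holds the same log2 values. Each library's low linear values were whole multiples of a single step (100% within 0.01), so total counts could be recovered from the authors' deposited signal. For HSL119 replicates 2 and 3 this was less certain, so count models left HSL119 out. These totals limit the precision of low values.

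The deposited log2 values were shifted per library by the median, over the 622 tested genes, of the deviation from each gene's mean (median of ratios). Genes with a linear value above 20 in at least 3 of 15 libraries were tested, and 136 were not. All libraries entered a single limma 3.58.1 fit of 4 groups (R 4.3.3, eBayes with trend, two-sided), adjusted by Benjamini-Hochberg over 622 genes at 0.05. The genes named are all 9 members, other G1/S genes that rose or fell (at most 4 each way, and not all are reported here), and the 2 nearest genes by pattern for each member. Genes of the mitotic, CDK inhibitor and ERK lists are named as examples, chosen after their values were seen. The members and lists were chosen with earlier results of these data known. The scaling, filter, trend, averaging of near-duplicate pairs, each left-out library, the replicate block and edgeR 4.0.16 on whole counts of KD1, KD2 and CTL were the alternatives; edgeR, the block on KD1 and KD2 alone and the calls on every scaling without each library were added after seeing the data. The fits were tested on simulated data. Replicate numbers come from the sample titles. Deviations from group means of same-numbered KD1 and KD2 libraries correlated across genes at 0.594 to 0.764, while those of other group pairs lay between -0.214 and 0.128. Numbers were taken as pairing KD1 with KD2 alone. Libraries of different numbers were not correlated with each other. Pairing by number was thus not tested apart from the split of libraries 1 and 2 from 3 and 4 in both lines. Promoters and names are from RefSeq tables on GRCh38.p14, in which 9 of 9 member symbols matched.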

Additional observations from a re-analysis of the deposited data

Results flagged for a closer look

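With the replicate number as a block in a fit of KD1 and KD2 alone, 4 of the 9 genes differed between the lines at limma's adjusted p under 0.05, as did 149 of all 622 tested genes. On the scale used here, none of the 9 did in the fits of all groups and every library, with the block or without it. On other scalings, CCNA2 did without the block. Its limma adjusted p was 0.030 on deposited log2, 0.028 on log2 of linear plus 1 and 0.039 with library medians. In the fit of KD1 and KD2 alone with the block, CCND1 differed by 0.72, CCNA2 by 0.21, RRM2 by -0.19 and TYMS by 0.13 (log2, KD1 minus KD2). The numbered pairs behind this include near-duplicate libraries. The fit of KD1 and KD2 alone was added after seeing the data. For each gene, the 4 libraries of KD1, KD2 and CTL (27 groups) were also checked for a sample far from the rest, and 0 were found.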

How the results depend on the processing

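Of 1251 alternative values over 45 results, 1167 kept their direction and their side of the threshold, 43 lost the threshold, 20 gained it and 21 changed sign. Some could not change direction, as leaving out a library of a group outside the comparison leaves the difference the same. Results past the threshold in neither setting also count as kept. Genes past the threshold numbered 421 in HSL119 against CTL (206 higher, 215 lower), 287 in KD1 (151 and 136), 332 in KD2 (180 and 152), 49 in KD1 against KD2 (21 and 28) and 417 in HSL119 against the knockdowns (209 and 208). Leaving out a library gave 381 to 437, 229 to 297, 282 to 341, 22 to 58 and 375 to 428. With pairs averaged the counts were 124 in KD1, 142 in KD2 and 1 in KD1 against KD2, where fitting only those groups gave 10, the replicate block on KD1 and KD2 alone 149, libraries 1 and 2 gave 87 and libraries 3 and 4 gave 80. The replicate block over all groups gave 439, 319, 357, 58 and 424. The split of higher and lower moved with the scale. On the deposited log2 scale it was 300 and 145 in HSL119, 334 and 39 in KD1, 336 and 50 in KD2 and 31 and 26 in KD1 against KD2. On log2 of linear plus 1 it was 238 and 60 in KD1, 275 and 72 in KD2, 33 and 28 in KD1 against KD2 and 152 and 273 in HSL119 against the knockdowns. With library medians it was 144 and 264, 114 and 186, 127 and 205 and 37 and 26 in the first 4 comparisons. Signs changed for CCND1 (KD1, libraries 1 and 2, -0.032; KD2, deposited log2 0.10 and libraries 3 and 4, 0.39), CCNA2 (KD1, deposited log2 0.17, linear plus 1 0.010), CDC6 (HSL119, deposited log2 0.032) and RRM2 (KD1, libraries 1 and 2, -0.093). They changed for TYMS (KD1, libraries 1 and 2, -0.0098; KD2, library medians -0.017 and libraries 1 and 2, -0.19), ORC6 (KD1 against KD2, libraries 1 and 2, 0.041) and NASP (HSL119, library medians -0.056; KD1 against KD2, -0.28 to 0.0047 without a library). MYBL2 changed sign in HSL119 (deposited log2 0.26, quantile 0.039, replicate block 0.0080). In KD1 against KD2, MYBL2 ran from -0.21 to 0.12 without a library, being above 0 without KD1 replicate 1 or 2 or KD2 replicate 3 or 4, and was 0.0010 in libraries 3 and 4. The cause was not tested. The limit that depth sets was not compared between the 9 genes.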
